A study of Sus scrofa with 48 samples.

Results

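The galectins LGALS3, LGALS1, LGALS8 and LGALS9 were described in whole blood of 2 pig lines, divergently selected on residual feed intake (RFI, the feed a pig eats beyond what its growth and maintenance predict), and each fed 2 diets. A probe was taken as a member when the scanner files gave it 1 of these 4 gene names and its spot was among the 37113 spots that the authors retained. In this way 20 of the 37113 probes were members: 8 for LGALS3, 3 for LGALS1, 5 for LGALS8 and 4 for LGALS9. LGALS3 was chosen by its measured values, since many of its probes were listed for a line × diet interaction in these same blood samples. Its interaction, its diet difference within each line and its line difference within each diet are therefore given as a description, without a test. The effects of line over both diets and of diet over both lines are separate contrasts of the balanced design, and these were tested.

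Blood was drawn at 132 days of age from 48 castrated male French Large White pigs, 24 per line. Within each line 12 pigs were fed HF (the high-fat, high-fiber diet) and 12 were fed LF (its low-fat, low-fiber counterpart). The 4 groups are called low RFI HF, low RFI LF, high RFI HF and high RFI LF, and each pig was measured on 1 single-colour Agilent array. The 48 arrays lay on 6 slides of 8, with 2 pigs of each group on every slide, and the slides were scanned on 3 days. The groups share breed, sex and age, and only the blood of this age was analysed here. A value is the log2 of a spot's median intensity minus the median of its array, so that 1 unit is a doubling. The number of arrays limits the precision, since arrays give no read depth.

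Galectins are small lectins that bind galactose-containing sugars on glycoproteins and glycolipids. They are made without a signal peptide, so that they act in the cytosol as well as outside the cell after an unconventional export. LGALS3 (galectin-3) has 1 sugar-binding domain and a long flexible tail that lets several molecules join, and it is abundant in monocytes and macrophages. LGALS1 (galectin-1) forms pairs of identical subunits and is known for dampening activated T cells. LGALS8 (galectin-8) and LGALS9 (galectin-9) carry a pair of different sugar-binding domains on 1 chain. LGALS8 marks damaged vesicles for autophagy, and LGALS9 is an interferon-inducible ligand of the receptor HAVCR2 on T cells.

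The probe sequences show how far the probes of 1 gene are separate readings, and they are printed as the scanner files give them, 5′ to 3′. The pair of LGALS3 probes A_72_P581447 and A_72_P586226 shares a run of 29 bases, in capitals, and has an edit distance of 4, whereas A_72_P641919 lies apart from both. Of the other 5 LGALS3 probes, each pair shares a run of 27 to 57 bases, and the run common to all 5 is given alone.
A_72_P581447: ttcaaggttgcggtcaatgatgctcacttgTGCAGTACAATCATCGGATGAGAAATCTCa
A_72_P586226: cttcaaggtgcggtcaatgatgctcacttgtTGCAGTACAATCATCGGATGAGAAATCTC
A_72_P641919: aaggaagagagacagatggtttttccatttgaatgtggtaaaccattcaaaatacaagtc
Run common to 5 LGALS3 probes: ctctcaccagtgcttcacacactatga

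For LGALS1 and LGALS8 the sequences show which probes overlap. A stretch of 27 bases of the LGALS1 probe O12084 is the reverse complement of a stretch of A_72_P073421, in capitals in both, so that these probes are written on opposite strands. The LGALS8 probes A_72_P445098 and O7985 share 46 bases on the same strand, in capitals, and O7985 shares 41 bases with A_72_P729843. The LGALS8 probes A_72_P100566 and A_72_P577099 share no run above 7 bases with each other or with the other probes of the gene.
A_72_P073421: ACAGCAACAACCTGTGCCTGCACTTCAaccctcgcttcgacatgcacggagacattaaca
O12084: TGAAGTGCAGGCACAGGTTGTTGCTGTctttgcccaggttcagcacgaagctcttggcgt
A_72_P445098: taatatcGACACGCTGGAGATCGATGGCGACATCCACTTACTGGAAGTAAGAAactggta
O7985: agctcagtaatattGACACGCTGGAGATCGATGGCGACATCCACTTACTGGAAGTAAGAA

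LGALS9 was read by 3 different sequences, since A_72_P552166 and A_72_P179706 are identical over all 60 bases and count as 1 reading. The other 2 probes of the gene share no long run with them, and 1 of these is shown in full.
A_72_P440571: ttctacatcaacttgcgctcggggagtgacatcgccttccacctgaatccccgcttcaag

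All 20 probes were well above background on all 48 arrays and none was saturated on any. The accessions of 18 of them were those of the same gene in RefSeq, and the 2 probes O12084 and O7985 carry protein accessions that RefSeq's table does not pair with a gene. A further spot named LGALS3 in the scanner files, A_72_P072171, carries the RefSeq accession of LGALS2, was well above background on 1 array, and is not among the retained spots. The supplementary interaction list of the study names LGALS3 for 2 more probes that the scanner files do not call LGALS3. These 2 probes are not members, and their values correlated with the LGALS3 value at r = 0.80 and r = 0.98 over the 48 pigs. Gene levels of each pig were obtained by averaging the member probes of the gene. In the deposited table the column of high RFI HF replicate 1 repeats the value 2.71 in 37090 rows, and the values of that pig were rebuilt from its scanner file.

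The blood held the transcripts that whole blood should hold. HBB, a globin chain of red cells, had a median of 9.21 over the 48 pigs, the T-cell receptor chain CD3E 3.54, the neutrophil receptor CXCR2 6.54, the monocyte receptor CD14 1.94, the B-cell antigen MS4A1 2.52 and the platelet chemokine PPBP 2.54. These are log2 levels relative to the array median, and fewer cells of a type and less RNA per cell cannot be told apart in them. Over all probes, 2.77% passed an adjusted P-value of 0.05 for line by limma's moderated test and 0% did so for diet. The criterion of the methods, a P-value under 0.01 with an FC above 1.1, was met by 5.78% for line and 0.245% for diet. Without adjustment, 610 probes (1.64%) had a diet P-value under 0.05.

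LGALS3 had its lowest group mean in low RFI pigs fed HF and its highest in high RFI pigs fed HF. In low RFI HF the LGALS3 level was 3.63 ± 0.42 (SD, n = 12), with a lowest pig at 3.08, a median of 3.52 and a highest pig at 4.39. In low RFI LF it was 4.07 ± 0.48 (SD, n = 12), and the pigs ran from 3.45 over a median of 3.99 to 5.17. In high RFI HF it was 4.36 ± 0.34 (SD, n = 12), from 3.65 over a median of 4.39 to 4.98. In high RFI LF it was 4.0 ± 0.59 (SD, n = 12), from 3.02 over a median of 4.17 to 4.74. The ranges of the 4 groups overlapped throughout. The widest gap was between the lines under HF, where 7 of 12 low RFI pigs lay below the lowest high RFI pig and 11 of 12 lay below the high RFI median. The groups low RFI LF and high RFI LF were neighbours in this order and differed by 0.07 in their means, far less than their SD. Their medians had the other order, and 9 of 12 low RFI LF pigs lay below the high RFI LF median.

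**Figure D1:**
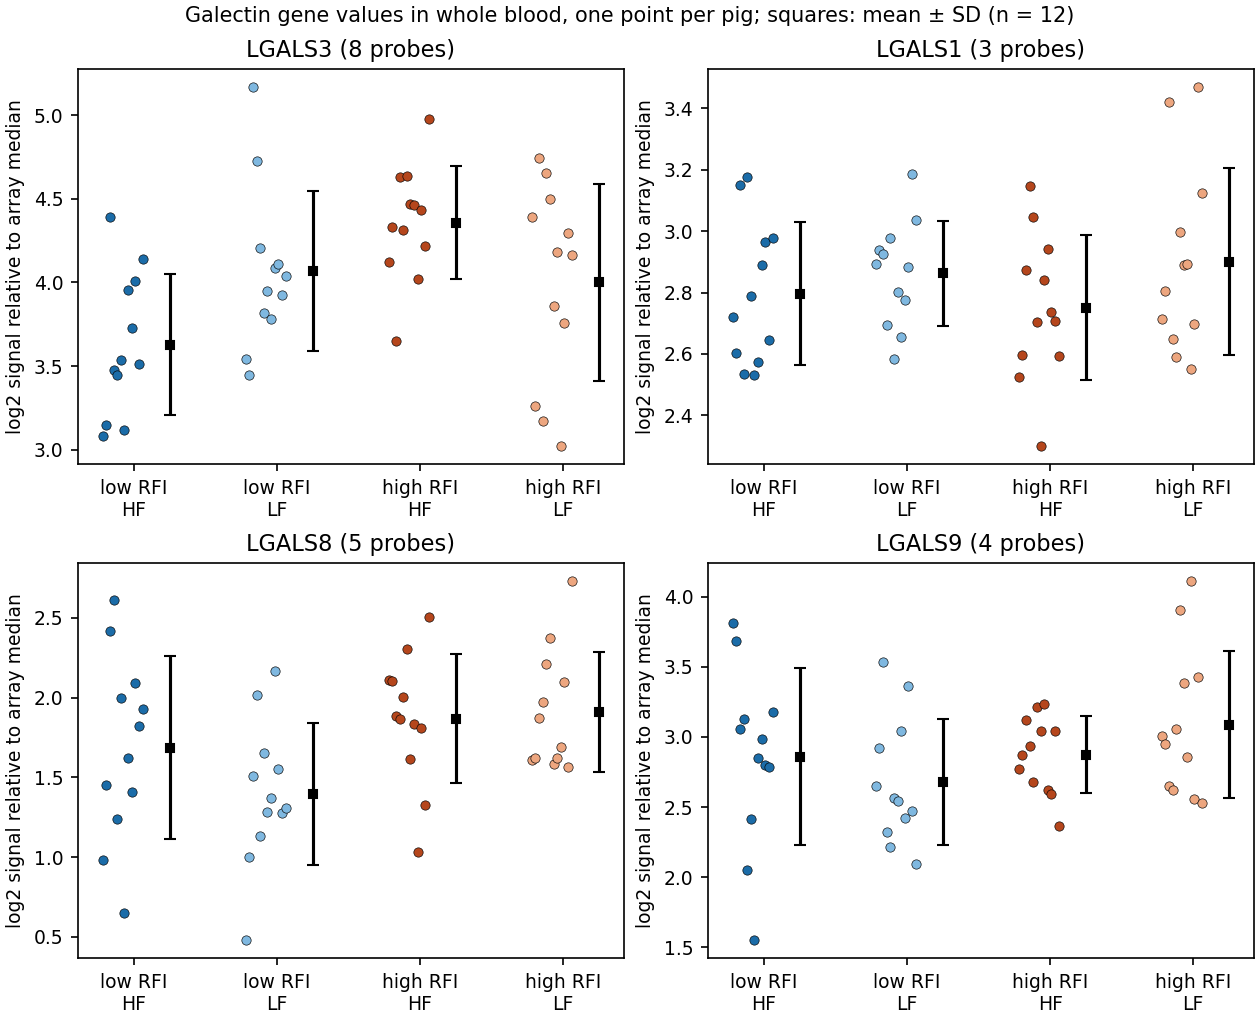
Log2 level of LGALS3, LGALS1, LGALS8 and LGALS9 relative to the array median, with 1 point per pig, in the 4 line and diet groups (x axis); black squares and bars are the mean ± SD of 12 pigs. The LGALS3 mean is 3.63 in low RFI HF and 4.36 in high RFI HF, the LGALS1 means lie between 2.75 and 2.90, and every group's range overlaps those of the others.

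The diet difference of LGALS3 had opposite signs in the 2 lines. In low RFI pigs the level under HF minus that under LF was -0.44 (SE 0.18), and 9 of 12 HF pigs lay below the LF median. In high RFI pigs the same difference was 0.36 (SE 0.18), and 9 of 12 HF pigs lay above the LF median. The difference between these diet differences, low minus high RFI, was -0.79 (SE 0.26). Seen by diet, the line difference was -0.73 under HF and 0.07 under LF. These values are those by which the gene was chosen, and they carry no test here.

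All 8 LGALS3 probes ordered the groups alike, with low RFI HF at the bottom and high RFI HF at the top. Group means are given below in the order low RFI HF, low RFI LF, high RFI HF and high RFI LF, as log2 levels of 12 pigs each. Of the pair that shares 29 bases, A_72_P581447 had means of 4.27, 4.72, 5.02 and 4.69, with diet differences of -0.45 in low RFI and 0.34 in high RFI pigs. Its partner A_72_P586226 had 4.16, 4.61, 4.89 and 4.56, with diet differences of -0.45 and 0.34. The probe that lies apart, A_72_P641919, had means of 2.0, 2.42, 2.72 and 2.35, and its diet differences of -0.41 and 0.37 were close to those of the pair. Among the 5 probes with a common run, A_72_P581442 had means of 3.77, 4.22, 4.48 and 4.14 and diet differences of -0.45 and 0.34. A_72_P569179 had 3.33, 3.78, 4.05 and 3.68, with -0.45 and 0.37. A_72_P211702 had 4.12, 4.54, 4.85 and 4.49, with -0.42 and 0.36. These 3 probes gave the same order of groups. A_72_P526562 had 3.73, 4.18, 4.48 and 4.10, with -0.46 and 0.37. A_72_P053466 had 3.64, 4.06, 4.35 and 3.99, with -0.42 and 0.36.

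The spread of the LGALS3 probes around these means was alike too. The SD within a group ran from 0.31 to 0.63 and was largest in high RFI LF for each of the 8 probes, and the diet differences had SEs of 0.18 to 0.19. The interaction of single probes lay between -0.83 and -0.77. Over the 48 pigs, with group means removed, each pair of LGALS3 probes correlated at r = 0.94 to 0.99. The probes are readings of 1 transcript in the same RNA samples, so their number adds no pigs. The 2 probes that only the interaction list names as LGALS3 had interactions of -0.69 and -0.82. They stand on that list for their interaction in these same blood samples, so these values are no separate support. The mean level of the former was -0.58, below the array median.

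**Figure D2:**
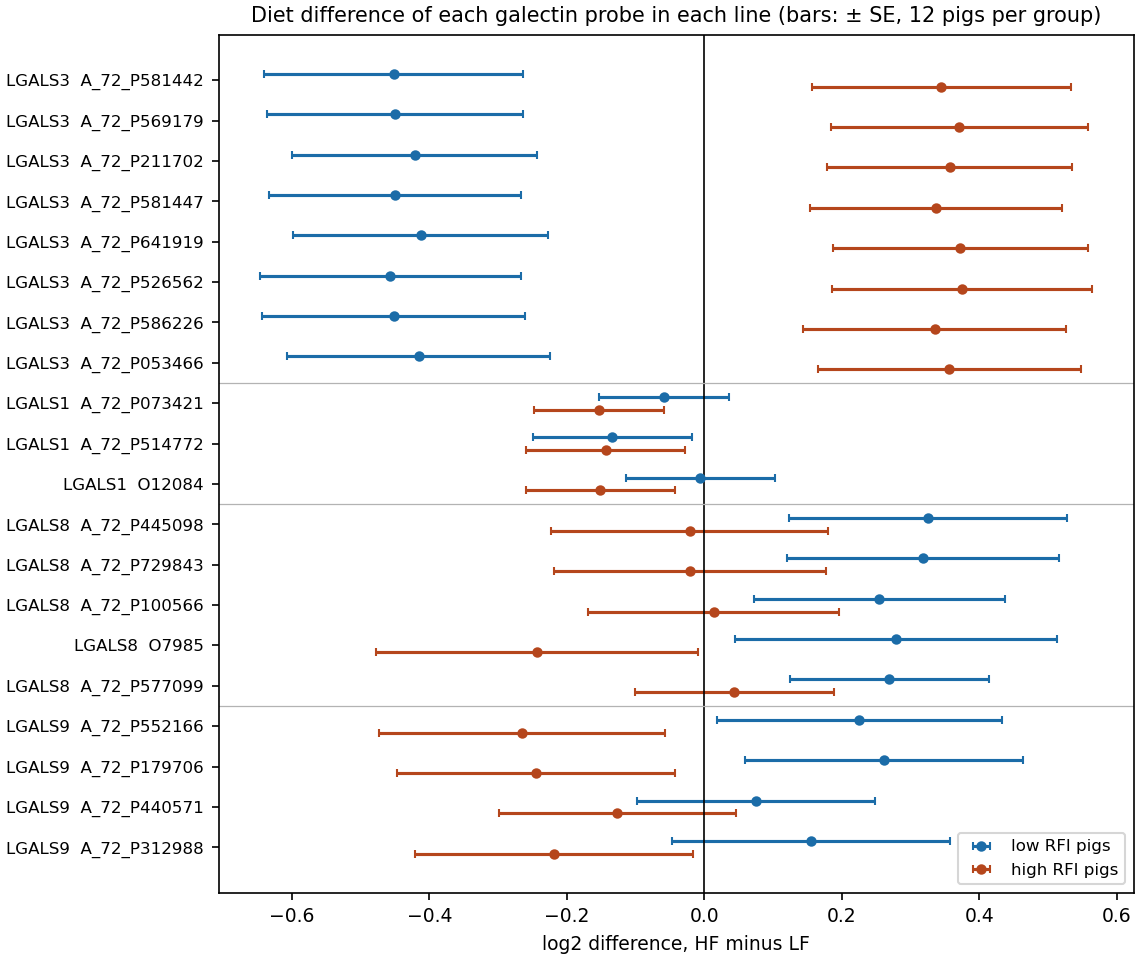
Log2 diet difference (HF minus LF) of each of the 20 galectin probes in low RFI pigs (blue) and high RFI pigs (red), with bars of ± 1 SE from the fit over 48 pigs. For LGALS3 all 8 probes lie below 0 in low RFI and above 0 in high RFI pigs; for LGALS1 all values lie below 0.

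Within slides, where each slide compared 2 pigs per group, the LGALS3 diet difference in low RFI pigs was negative on 6 of 6 slides, from -1.01 to -0.16. In high RFI pigs it was positive on 5 of 6 slides, with -0.10 on slide 3 and 0.84 on slide 6 as the ends. Leaving out 1 pig at a time, the difference in low RFI pigs lay between -0.51 and -0.34, and that in high RFI pigs between 0.27 and 0.42. The pig with the largest pull on the low RFI value was low RFI LF replicate 3, the pig with the highest LGALS3 level of all at 5.17. LGALS3 was chosen by these same pigs and differences, so the signs over slides and omissions are a description and no support.

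**Figure D3:**
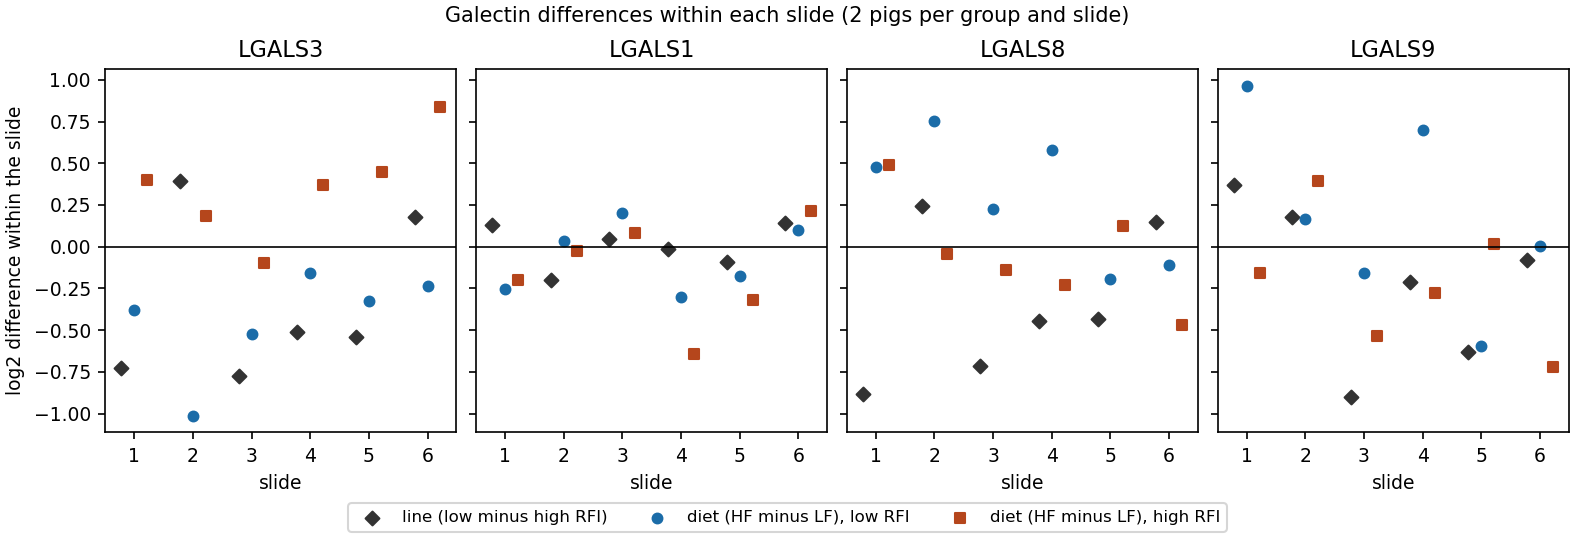
Log2 differences of the 4 galectin gene values within each of the 6 slides (x axis), each from 2 pigs per group; diamonds are low minus high RFI, circles HF minus LF in low RFI pigs and squares HF minus LF in high RFI pigs. The LGALS3 circles lie below 0 on 6 of 6 slides, and the LGALS3 and LGALS8 diamonds lie below 0 on 4 of 6. The LGALS3 diet differences are those by which the gene was chosen.

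Averaged over diets, the LGALS3 level of low RFI pigs lay below that of high RFI pigs, but the difference did not pass correction. The low minus high RFI difference was -0.33 (SE 0.13, 95% confidence interval -0.59 to -0.07), an FC of -1.26, with a P-value of 0.0145 and an adjusted P-value of 0.188 by limma over 10946 genes. Among 24 low RFI pigs, 21 lay below the high RFI median. Since the line difference in means was -0.73 under HF and 0.07 under LF, the mean over diets describes neither diet group. Under LF, 9 of 12 low RFI pigs still lay below the high RFI median, although the low RFI mean was the higher. Within slides it was negative on 4 of 6, and it was 0.39 on slide 2 and 0.18 on slide 6. The diet effect over both lines was -0.04 (SE 0.13, 95% confidence interval -0.30 to 0.22) with a P-value of 0.753 and an adjusted P-value of 1.0, and 12 of 24 HF pigs lay above the LF median.

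LGALS8, the galectin that tags damaged vesicles, had its lowest levels in low RFI pigs fed LF. Its level was 1.69 ± 0.58 (SD, n = 12) in low RFI HF, where the pigs ran from 0.65 over a median of 1.72 to 2.61. In low RFI LF it was 1.40 ± 0.45 (SD, n = 12), from 0.48 over 1.34 to 2.17. In high RFI HF it was 1.87 ± 0.40 (SD, n = 12), from 1.03 over 1.88 to 2.51, and in high RFI LF 1.91 ± 0.38 (SD, n = 12), from 1.56 over 1.78 to 2.73. Under LF, 9 of 12 low RFI pigs lay below the lowest high RFI pig, whereas under HF 2 of 12 did. The high RFI groups were neighbours and differed by less than their SD.

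The line difference of LGALS8 was -0.35 (SE 0.13, 95% confidence interval -0.60 to -0.09), an FC of -1.27, with 17 of 24 low RFI pigs below the high RFI median. Its P-value was 0.0091 and its adjusted P-value 0.145 by limma over all genes, so that it met the criterion of the methods but did not pass correction. Within slides the line difference was negative on 4 of 6 slides, and, like that of LGALS3, positive on slides 2 and 6 (0.24 and 0.15). The diet effect was 0.12 (SE 0.13, 95% confidence interval -0.14 to 0.38) with a P-value of 0.345, and it was 0.080 without low RFI HF replicate 4. As a description, the diet difference was 0.29 (SE 0.18) in low RFI pigs and -0.05 (SE 0.18) in high RFI pigs, and the line difference was -0.18 under HF and -0.52 under LF. The high RFI value had no settled sign, since it was 0.03 without high RFI HF replicate 9 and -0.10 without high RFI HF replicate 12.

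All 5 LGALS8 probes had their lowest mean in low RFI LF. In the order used above, A_72_P445098 had means of 2.33, 2.0, 2.53 and 2.55, with diet differences of 0.33 in low RFI and -0.02 in high RFI pigs. A_72_P729843 had 2.19, 1.87, 2.43 and 2.45, with 0.32 and -0.02, and A_72_P100566 had 1.30, 1.04, 1.56 and 1.55, with 0.25 and 0.01. A_72_P577099 had 0.09, -0.18, 0.26 and 0.22, with 0.27 and 0.04. O7985 had 2.53, 2.25, 2.55 and 2.79, with 0.28 and -0.24, the latter being the farthest from 0 of the 5 probes in high RFI pigs. The SEs of these diet differences were 0.14 to 0.23.

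Among the 5 LGALS8 probes, O7985 went less with the others. The other 4 probes correlated with each other at r = 0.91 to 0.99 over the 48 pigs, and O7985 with them at r = 0.69 to 0.75, although it shares 46 bases with A_72_P445098. The pig that set O7985 apart most was high RFI HF replicate 7, where O7985 read 0.50 against 1.64 in the next lowest pig of that group. The line difference of O7985 was -0.28 (SE 0.17, P-value 0.0945), and those of the other 4 probes ran from -0.41 to -0.28 with P-values of 0.00445 to 0.0112.

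LGALS9, the interferon-inducible galectin, varied more between pigs than between groups. Its level was 2.86 ± 0.63 (SD, n = 12) in low RFI HF, where the pigs ran from 1.55 over a median of 2.92 to 3.81. In low RFI LF it was 2.68 ± 0.45 (SD, n = 12), from 2.09 over 2.55 to 3.53. In high RFI HF it was 2.87 ± 0.27 (SD, n = 12), from 2.37 over 2.90 to 3.23, and in high RFI LF 3.09 ± 0.52 (SD, n = 12), from 2.53 over 2.98 to 4.11. The high RFI HF pigs lay closest together, and the means of low RFI HF and high RFI HF differed by 0.02. The line difference was -0.21 (SE 0.14, 95% confidence interval -0.49 to 0.06; P-value 0.125, adjusted 0.601), and 15 of 24 low RFI pigs lay below the high RFI median. Within slides it ran from -0.90 on slide 3 to 0.37 on slide 1 and was negative on 4 of 6. The diet effect was -0.02 (SE 0.14, 95% confidence interval -0.29 to 0.26; P-value 0.901). As a description, the diet difference was 0.18 (SE 0.19) in low RFI and -0.21 (SE 0.19) in high RFI pigs. Single pigs moved both, the former to 0.09 without low RFI HF replicate 1 and to 0.30 without low RFI HF replicate 7, and the latter to -0.12 without high RFI LF replicate 9. The probes of identical sequence gave nearly the same means, A_72_P552166 with 5.31, 5.08, 5.30 and 5.56 and A_72_P179706 with 5.34, 5.08, 5.32 and 5.56, in the same group order. Their diet differences were 0.23 and 0.26 in low RFI and -0.26 and -0.24 in high RFI pigs (SE 0.20 to 0.21). The probes A_72_P440571, with means of 0.37, 0.30, 0.46 and 0.59, and A_72_P312988, with 0.42, 0.26, 0.42 and 0.64, had diet differences of 0.08 and 0.16 in low RFI and -0.13 and -0.22 in high RFI pigs. All 4 probes had their highest mean in high RFI LF. Over the 4 probes the line difference ran from -0.24 to -0.19, and the probes correlated at r = 0.91 to 0.99, the upper end being the pair of identical sequence.

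LGALS1, the galectin that dampens T cells, had the smallest line difference of the 4. Its level was 2.80 ± 0.23 (SD, n = 12) in low RFI HF, 2.86 ± 0.17 in low RFI LF, 2.75 ± 0.24 in high RFI HF and 2.90 ± 0.30 in high RFI LF, with single pigs from 2.30 to 3.47. The ranges of the 4 groups overlapped, and the order of the means is within the SD. The line difference was 0.0040 (SE 0.069, P-value 0.954, adjusted 0.994), and its 95% confidence interval of -0.13 to 0.14 leaves room for a difference of that size either way. Within slides it was negative on 3 of 6, from -0.20 to 0.14. The diet effect was -0.11 (SE 0.07, 95% confidence interval -0.25 to 0.03) with a P-value of 0.125 and an adjusted P-value of 1.0, and 16 of 24 HF pigs lay below the LF median. As a description, the diet difference was -0.07 (SE 0.10) in low RFI and -0.15 (SE 0.10) in high RFI pigs. They became -0.037 without low RFI LF replicate 11, -0.10 without low RFI HF replicate 5 and, in high RFI pigs, -0.098 without high RFI LF replicate 11. Group means of A_72_P073421 were 4.02, 4.08, 3.97 and 4.12 and those of A_72_P514772 4.94, 5.08, 4.89 and 5.03, in the order used above, and both probes had the HF mean below the LF mean in each line. Their diet differences were -0.06 and -0.13 in low RFI and -0.15 and -0.14 in high RFI pigs (SE 0.09 and 0.12). The line difference of single probes was 0.01 for A_72_P073421, 0.05 for A_72_P514772 and -0.05 for O12084. The opposite-strand probe O12084 had group means of -0.58, -0.57, -0.60 and -0.45, with diet differences of -0.01 and -0.15 (SE 0.11), and correlated with the others at r = 0.71 to 0.74, against r = 0.87 between those 2.

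Of the 20 galectin probes, 0 passed an adjusted P-value of 0.05 for line, where 2.77% of all probes did, and 0 for diet, where 0% did. At an unadjusted P-value under 0.05 for line the 8 LGALS3 probes and 4 LGALS8 probes were found, and 12% of all probes were. The criterion of the methods was met for line by 5 probes, all lower in low RFI pigs: A_72_P211702 and A_72_P581447 of LGALS3, and A_72_P729843, A_72_P100566 and A_72_P577099 of LGALS8. Among all probes 3.09% met that criterion with lower values in low RFI pigs, and probes of 1 gene are not separate findings. The count of 5 was fragile, since it lay between 1 (without low RFI HF replicate 7) and 11 (without low RFI LF replicate 3, or without high RFI LF replicate 9) when 1 pig was left out, and 30 of the 48 omissions moved it by over 1.5 times. For diet the criterion was met by 0 of the 20.

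**Figure D4:**
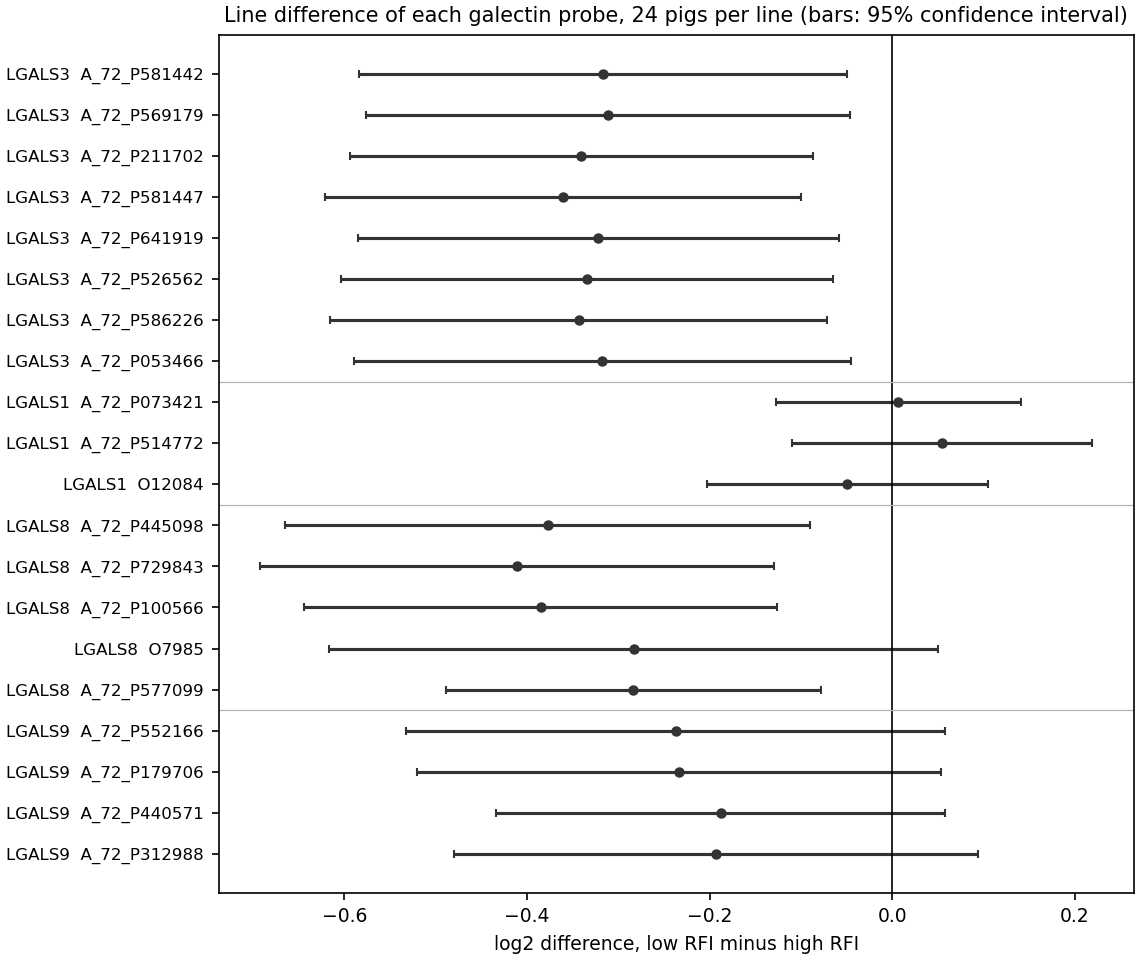
Log2 line difference (low minus high RFI, 24 pigs per line) of each of the 20 galectin probes with its 95% confidence interval from the fit over 48 pigs. The LGALS3 probes lie between -0.36 and -0.31 and the LGALS8 probes between -0.41 and -0.28, and the intervals of the LGALS8 probe O7985 and of all LGALS1 and LGALS9 probes cover 0.

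Pigs of the same group differed widely in 3 of the 4 galectins. The within-group SD was 0.47 for LGALS3, 0.46 for LGALS8 and 0.49 for LGALS9, which lay above that of 89.6%, 89.0% and 90.8% of all genes. That of LGALS1 was 0.24, next to the median of 0.24 over all genes. With group means removed, LGALS3 and LGALS8 went together over the 48 pigs with Pearson's r = 0.46 and Spearman's rho = 0.41 (permutation P-values 0.00091 and 0.00332, adjusted over the 6 pairs 0.00546 and 0.0199). Without the 2 pigs farthest from the LGALS3 median r was 0.49, and within slides it was 0.36. The other 5 pairs had r between -0.08 and 0.30, with adjusted permutation P-values of 0.153 to 0.98.

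The genes whose levels went most closely with each galectin were sought among all 10946, as the highest Pearson's r with group means removed. They were picked for that r, which is a description without a P-value, and all values come from the same arrays. For LGALS3 they were MAOA (monoamine oxidase A, r = 0.84), DUS2L (a tRNA-modifying enzyme, 0.82), TYROBP (the signalling adaptor of myeloid and NK receptors, 0.81), ADAM8 (a leukocyte surface protease, 0.80), LOC509555 (0.80), AUH (a mitochondrial enzyme of leucine breakdown, 0.79), OS9 (a lectin of protein quality control, 0.78) and AGPAT2 (an acyltransferase of triglyceride synthesis, 0.77). Without the 2 pigs farthest from the LGALS3 median these r values lay between 0.72 and 0.81. Their diet differences ran from -0.35 to -0.05 in low RFI pigs and from 0.03 to 0.20 in high RFI pigs, all smaller in size than those of LGALS3, and they are given without a test or a count of signs. Genes picked for going with LGALS3 on the same arrays are no separate support for its diet pattern. None of the 8 passed for line, with adjusted P-values of 0.282 to 0.972.

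LGALS9 had the closest companions of the 4 galectins. IFI6, an interferon-stimulated gene, went with it at r = 0.93 and Spearman's rho = 0.93, and r was 0.91 without the 2 pigs farthest from the LGALS9 median and 0.94 within slides. IRG6, an interferon-induced gene, followed at r = 0.88 and ZBP1, a nucleic acid sensor that interferon also induces, at r = 0.84. IFI6 levels spanned 5.27 to 8.55 over the 48 pigs on the log2 scale, and none of these 3 genes passed for line, with adjusted P-values of 0.817 to 0.937. LGALS8 went most closely with GABARAP (an autophagy protein of the ATG8 family, r = 0.71, rho = 0.55), ADAM15 (a membrane protease, 0.70) and PRPF18 (a splicing factor, 0.66). LGALS1 went with AKR7A2 (an aldehyde reductase, r = 0.72), C10ORF11 (0.69) and LOC100522005 (0.69).

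Marker genes of 7 blood cell types were read beside the galectins, a gene being counted as measured where a retained probe carried its name in the scanner files. The mean log2 level of each list was set against each galectin over the 48 pigs with group means removed. This gave 28 relations, tested with 100000 permutations within groups and adjusted over the 28. LGALS3 correlated with the neutrophil list (8 of 12 genes measured; r = 0.42, rho = 0.40, adjusted permutation P-values 0.0216 and 0.0429) and with the monocyte list (9 of 12 measured; r = 0.39, rho = 0.43, adjusted 0.0473 and 0.0429). Without the 2 pigs farthest from the marker median r was 0.35 and 0.47, and within slides 0.39 and 0.41. LGALS8 correlated with the erythroid list (7 of 9 measured; r = 0.50, rho = 0.43, adjusted 0.0216 and 0.0429), where r was 0.49 without the 2 farthest pigs and 0.54 within slides. For LGALS8 and the T-cell list (8 of 9 measured) r was -0.43, with an adjusted permutation P-value of 0.0216, while rho was -0.37 with 0.072. For LGALS9 and the neutrophil list r was 0.39 with 0.0473, while rho was 0.38 with 0.0751. The remaining 23 relations did not pass, LGALS1 among them with each list.

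**Figure D5:**
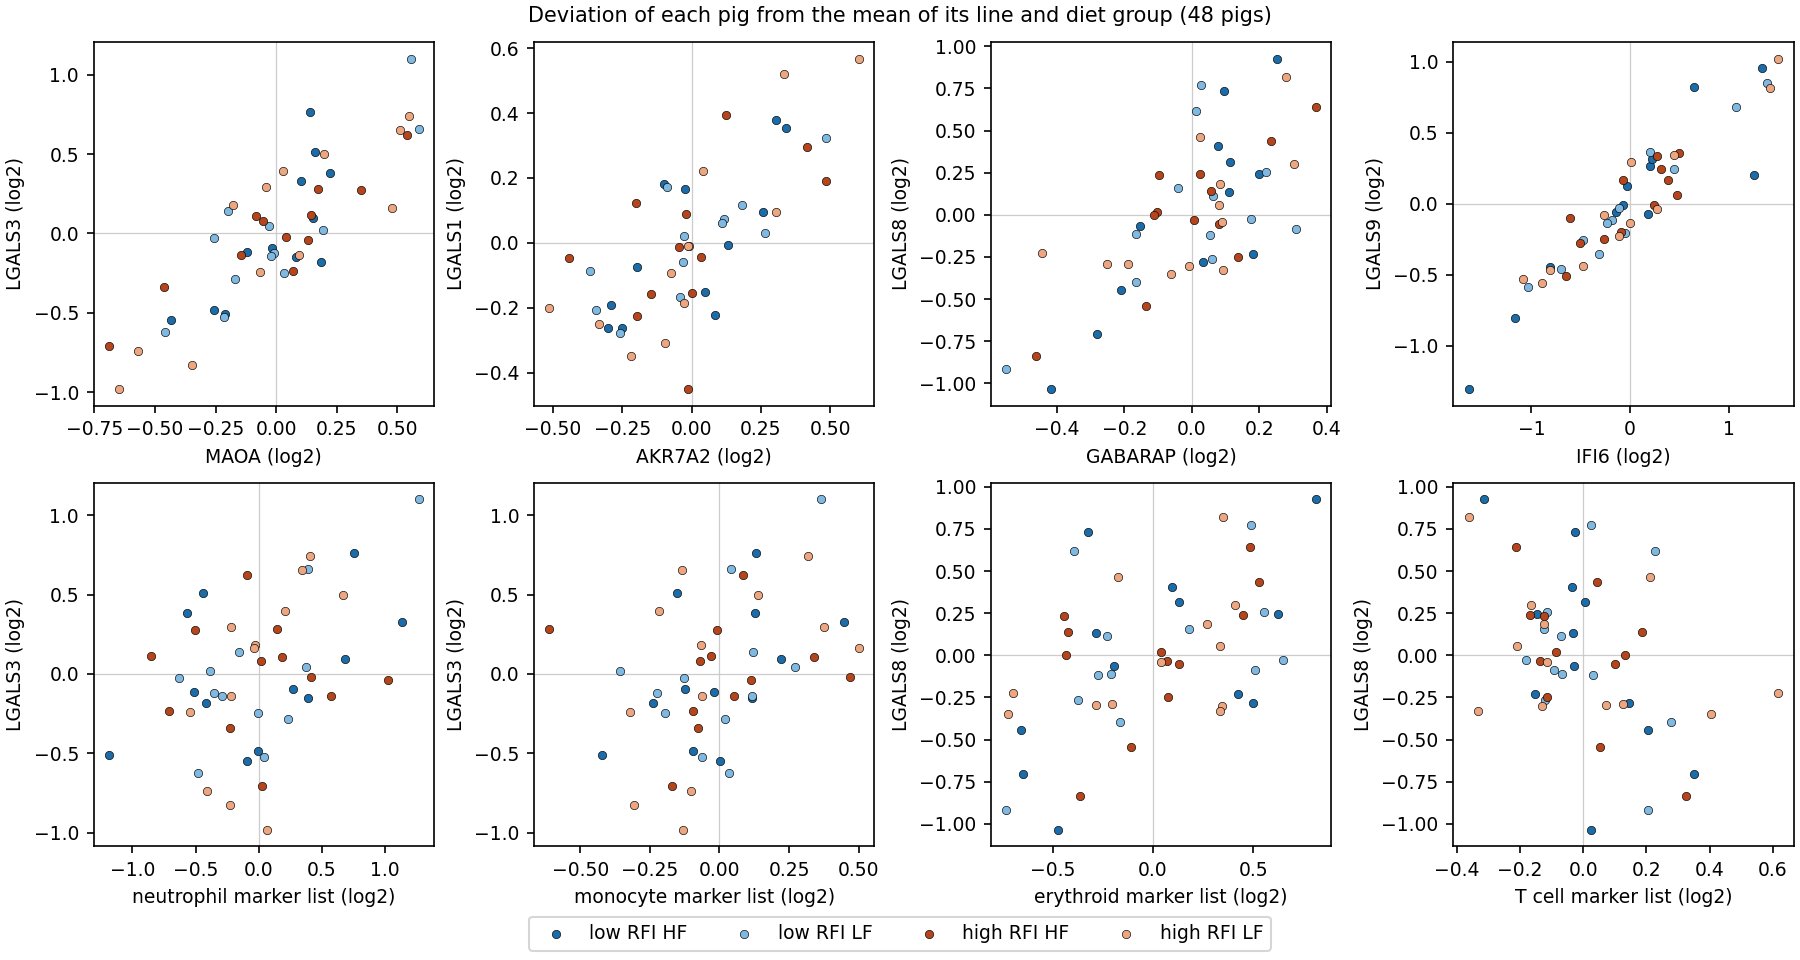
Deviation of each of the 48 pigs from the mean of its line and diet group, on the log2 scale, for a galectin (y axis) against its closest gene (upper row) or a marker list (lower row), coloured by group. LGALS9 and IFI6 lie along a narrow band (r = 0.93), whereas LGALS3 scatters widely about the neutrophil list (r = 0.42).

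Single genes of 5 of these marker lists differed by line, where 3.29% of all genes passed an adjusted P-value of 0.05. The summed neutrophil level ran from 7.07 over a median of 7.90 to 8.99 in high RFI HF, and the medians of the other groups were 7.37 in high RFI LF, 7.23 in low RFI HF and 7.22 in low RFI LF, with pigs from 6.14 to 8.60. Of the 8 neutrophil genes 1 passed for line, CXCR2 at -0.42 (SE 0.12, adjusted P-value 0.0387), and MPO, MMP8, CSF3R and CAMP were not among the retained named probes. Of the 9 monocyte genes 1 passed, CD14 at -0.47 (SE 0.13, adjusted 0.0365), with summed levels of 5.26 to 6.90 over the groups. The erythroid sum lay between 9.74 and 11.1 in all groups, and 1 of 7 genes, the red-cell anion exchanger SLC4A1, was higher in low RFI pigs at 0.26 (adjusted 0.0401). The mean erythroid level was 3.48 in high RFI HF and 3.20 in high RFI LF, against 3.45 in low RFI HF and 3.47 in low RFI LF. KLF1, a transcription factor of red-cell precursors, was the 1 erythroid gene that met the criterion for diet, where 0.228% of all genes did, and it was higher under HF at 0.42 (P-value 0.00161, adjusted 1.0). SLC4A1 was the 1 erythroid gene with an interaction P-value under 0.01 (0.00205), where 0.219% of all genes had one, and its diet difference was -0.22 in low RFI and 0.26 in high RFI pigs. Of the 8 T-cell genes 1 passed, LCK, higher in low RFI pigs at 0.21 (adjusted 0.0339), and the summed T-cell level had medians of 5.77 in low RFI HF, 5.76 in low RFI LF, 5.57 in high RFI HF and 5.71 in high RFI LF. The median line difference of the 5 measured B-cell genes was -0.23, and MS4A1 at -0.36 (adjusted 0.00117) and BLNK at -0.23 (adjusted 0.0217) were among those that passed. The summed B-cell level had medians of 4.72 in low RFI HF, 4.64 in low RFI LF, 4.88 in high RFI HF and 4.99 in high RFI LF. None of 7 NK or 4 platelet genes passed. Whatever the test, the line difference was positive for 8 of 8 T-cell genes (median 0.14), 7 of 7 erythroid genes (median 0.10), 4 of 7 NK genes (median 0.13), 2 of 4 platelet genes (median -0.04), 3 of 8 neutrophil genes (median -0.33), 2 of 9 monocyte genes (median -0.05) and 0 of 5 B-cell genes, where 6998 of all 10946 genes had a positive one. ELANE of the neutrophil list and CSF1R and CD68 of the monocyte list had medians below the array median, at -1.43, -0.76 and -1.87. The part of these lists in the galectin line and diet differences was not tested.

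Other galectins were read by 1 or 2 probes each, and none passed a test. Of 10 further family members 6 were measured, 0 of them passed for line or diet by limma after adjustment or met the criterion, and 0 were under a P-value of 0.05 for diet. The line difference was 0.10 for LGALS4 (SE 0.05), -0.44 for LGALS7 (SE 0.22, P-value 0.0513), 0.09 for LGALS12 (SE 0.09), 0.10 for LGALS13 (SE 0.18), -0.10 for LGALSL (SE 0.08) and 0.03 for the lens protein GRIFIN (SE 0.07). Their median line difference was 0.06 and that of all 10946 genes 0.03, where 3.29% of genes passed for line and 0% for diet. The criterion was met by 6.19% of all genes for line and 0.228% for diet, and 212 of 10946 were under a P-value of 0.05 for diet by limma. Counts of 0 among 6 genes therefore say little.

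Of the proteins that galectins bind, 18 of 27 were measured. The hyaluronan receptor CD44 was at -0.09 (SE 0.07) and the tyrosine phosphatase PTPRC (CD45), a glycoprotein that galectin-1 binds, at -0.06 (SE 0.08), neither passing. LGALS3BP, HAVCR2 and LAMP1 were not among the retained named probes. The list median was -0.02 for line and 0 genes passed for diet, where 0% of all genes did.

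In the response to damaged vesicles and autophagy 12 of 15 genes were measured and 1 differed by line, where 3.29% of all genes did. OPTN (optineurin, an autophagy receptor) was -0.20 (SE 0.06, adjusted P-value 0.0283), with 21 of 24 low RFI pigs below the high RFI median. CALCOCO2 (NDP52), the receptor that LGALS8 recruits, was at -0.05 (SE 0.05, P-value 0.334). Among the enzymes that build the sugars galectins recognise 14 of 17 were measured and 0 passed after adjustment. B3GNT5, which starts the chains of lacto-series glycolipids, was at -0.27 (adjusted P-value 0.0625) and met the criterion, as 6.19% of all genes did. ST6GAL1, the sialyltransferase whose product blocks galectin-1 binding, was at -0.01 (SE 0.05), and MGAT5 was not among the retained named probes. Over these 3 lists 0 of 44 genes met the diet criterion, where 0.228% of all genes did, and 0 had a P-value under 0.01 for the interaction, where 0.219% did.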

How the data were processed

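Agilent Feature Extraction files gave the median intensity of each spot, as deposited by the authors, who list R 3.0.2 in their processing notes. The authors filtered spots for background, diameter, saturation and uniformity and deposited a table of log2 values, median-centred per array, for 37113 spots. On 47 arrays these equalled log2 of the median intensity minus the array median within 0.000001, so no background was subtracted, and the column of high RFI HF replicate 1 was rebuilt with the same arithmetic. The files name no genome build, so no coordinates are given.

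Every retained probe, and the mean over probes of each of 10946 gene names, was modelled on line, diet and line × diet with limma 3.58.1 in R 4.3.3 (moderated test, Benjamini-Hochberg over all features). The low minus high RFI and HF minus LF directions apply throughout. Correlations were computed in Python 3.11.15 with numpy 2.4.6 and scipy 1.17.1. On simulated data of 37113 probes the line test recovered 84% of changes of 0.5 and 99% of changes of 1 (log2). There were 3 false calls among the probes left unchanged. The changed probes were drawn from all probes, and the noise was independent between probes. LGALS3, LGALS8 and LGALS9 had a wider spread than most genes, so these shares need not hold for them. The members, the gene lists and the tests were chosen with earlier results of these data known. Genes named were the members, the measured other galectins, 8 further pathway genes, list genes past adjusted P-value 0.05 for line or the criterion for diet or interaction, and the 8 genes closest to LGALS3 and 3 closest to each other member. Marker genes, and B3GNT5, were named after their values were seen. The pigs are separate animals, and neither blood counts nor qPCR values were used here. Some results, among them 1 of the pathway genes past the threshold for line, are not reported here.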

Additional observations from a re-analysis of the deposited data

How the results depend on the processing

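The alternatives were background-corrected signal, normexp with quantile normalization, other probe sets and probe summaries, an analysis of variance, blocks for slide, scan day and replicate number, the deposited column as it stands, and leaving out each pig. Without O12084 for LGALS1, and with the repeated LGALS9 sequence counted once, were chosen after seeing the data. Without O12084 the LGALS1 line difference was 0.031 and its diet effect -0.12. With the repeated sequence counted once the LGALS9 line difference was -0.21. With all 48 pigs, LGALS3 and LGALS8 kept a negative line difference under each of these settings, from -0.36 to -0.27 and from -0.37 to -0.28, and passed correction in none. The LGALS3 interaction lay between -0.82 and -0.68 with all pigs and between -0.86 (without low RFI HF replicate 3) and -0.69 with 1 pig left out. The near-zero line difference of LGALS1 turned to -0.00363 with the column as deposited, -0.00297 with normexp and quantile normalization, and -0.0141 or -0.00934 with background-corrected signal centred on the 75th percentile or the median. The diet effect of LGALS9 turned to 0.00851 with its brightest probe. The LGALS8 diet difference in high RFI pigs turned to 0.0047 with the column as deposited and was -0.24 with the brightest probe, O7985, with which the LGALS8 diet effect was 0.018. The 5 probes that met the line criterion became 2 with the column as deposited and 8 with normexp and quantile normalization. The shares of all probes that met it under these settings are not given here. The causes were not tested.

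With the replicate number as a block, 1 of the 20 probes, A_72_P100566 of LGALS8, had an adjusted P-value under 0.05 for line (0.049) where 0 had one without it. Pigs of the same number in 2 groups deviated together at r above 0.1 in 41 of 72 pairs (median 0.19, range -0.65 to 0.76), and pigs of different numbers in 318 of 792 pairs (median -0.02). Pigs of the same number lay on the same slide in all 4 groups, and pigs of 1 slide in 2 groups had r above 0.1 in 74 of 144 pairs (median 0.12). With slide as the block 0 of the 20 probes had an adjusted P-value under 0.05 for line. The shares of all probes under it in these block fits are not given here, so the counts have no background beside them. The 144 pairs of 1 slide include the 72 of the same number, so slide and number are not set apart here. Pigs of the same number had the higher median r, and these values do not decide whether they are pairs. The labels give the numbers no meaning, so they were not taken as pairs.

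Leaving out 1 pig at a time gave line differences of -0.38 to -0.30 for LGALS3 (adjusted P-values 0.0766 to 0.278), -0.39 to -0.30 for LGALS8 (0.0709 to 0.224), -0.26 to -0.15 for LGALS9 and -0.017 to 0.030 for LGALS1. Diet effects ran from -0.086 to 0.0088 for LGALS3, from 0.080 to 0.17 for LGALS8 and from -0.061 to 0.042 for LGALS9, and the probes past adjusted P-value 0.05 for line from 0 to 1, the 1 without low RFI HF replicate 4. Those that met the line criterion ran from 1 to 11, and the shares of all probes in these refits are not given here.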
